A study of Mus musculus with 12 samples.

Results

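The core genes of the TGF-beta (transforming growth factor beta) pathway were followed in splenic T cells of hypertensive mice: the ligand Tgfb1, the receptors Tgfbr1, Tgfbr2 and Tgfbr3, the signal carriers Smad2, Smad3 and Smad4, and the inhibitors Smad7, Ski and Skil. They were chosen by name, as the ligand, its receptors, the Smads and the inhibitors of the signal, and make up 10 of the 49315 genes in the count table. RNA-seq had been done on T cells taken from the spleen by magnetic negative selection, in 12 libraries of 4 groups with 3 mice each. Wild-type (WT) mice were infused for 14 days through osmotic minipumps with vehicle (WT sham) or with angiotensin II at 490 ng/kg per day (WT Ang II), and miR-214 KO mice, written miR-214-/- here, received the same vehicle or the same Ang II. By the study's methods the mice were 12-week-old males, and the knockout was a deletion in the whole animal, so that its T cells and all its other cells lacked the microRNA. The row of the Mir214 precursor gene held 0 counts in all 12 libraries, WT included, so these mRNA libraries could not check the deletion. By the study's methods the samples of a group were separate mice.

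TGF-beta is secreted in a latent form, held by its own propeptide, and must be set free before it binds. The freed ligand joins TGFBR2, which then phosphorylates TGFBR1, and TGFBR1 phosphorylates SMAD2 and SMAD3. These bind SMAD4, enter the nucleus and act on target genes, among them Smad7, whose product shuts the receptor down. In T cells the pathway is known for holding back activation and cytotoxic genes, for supporting peripheral regulatory T cells, and for its part in Th17 differentiation.

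Libraries held between 21126874 and 29605988 counts on genes, and each of the 10 genes had at least 1102 counts in every library, so all 10 passed the filter on low counts in all comparisons. Values are CPM, counts scaled to a common library size with TMM factors, and in each list of 3 values they are given for replicates 1, 2 and 3 in that order. All 15 markers of T cells were present, but their summed level was 7184 to 8350 CPM in WT sham, 4908 to 5620 in WT Ang II, 6724 to 7829 in miR-214-/- sham and 5598, 7270 and 7261 in miR-214-/- Ang II. Over the same groups the 15 proliferation genes summed to 621 to 771, 1993 to 2441, 831 to 1192, and 1972, 1056 and 1110 CPM. Red-cell precursor genes (12 of 13 listed were matched) ran from 417 to 598 CPM in WT sham and from 1528 to 5881 CPM in WT Ang II, and 12 neutrophil genes from 213 to 270 and from 1178 to 3577 CPM. In miR-214-/- sham the red-cell genes summed to 362 to 731 CPM and the neutrophil genes to 253 to 1031 CPM, and in miR-214-/- Ang II to 956, 4765 and 675 CPM and to 1251, 3270 and 650 CPM. The 8 B cell markers summed to 98.5, 488 and 64.2 CPM in miR-214-/- Ang II. Thus the first miR-214-/- Ang II library stood apart from the others of its group in T cell and proliferation genes, and the second in red-cell, neutrophil and B cell genes. Without the second library 0 of the 10 genes were called with Ang II in miR-214-/-, between genotypes in Ang II or in the interaction. In such bulk libraries, fewer T cells and less of an RNA per T cell cannot be told apart.

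The mature miR-214-3p is shown because its deletion separates the genotypes. It is encoded at chr1:162223438-162223459 on the plus strand (RefSeq, GRCm38.p6), within the non-coding Dnm3os transcript, and the capitals mark its seed, bases 2 to 8, which pairs with target mRNAs.

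miR-214-3p: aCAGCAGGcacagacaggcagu

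The letters that pair with this seed, CCTGCTG, were looked for on the sense strand of the annotated 3′ UTRs of all 10 genes (GENCODE M21, GRCm38). Of the 10 genes 6 held them: Tgfbr2, Tgfbr3, Smad3, Smad7 and Ski once each, and Smad4 at 2 places. The windows of 4 genes follow, on the minus strand at chr9:116086529-116086535 (Tgfbr2), chr5:107106682-107106688 (Tgfbr3), chr9:63648103-63648109 (Smad3) and chr4:155156801-155156807 (Ski), with the match in capitals.

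Tgfbr2 site: cccttggcagCCTGCTGtcccctat
Tgfbr3 site: tttgaacaccCCTGCTGtaaccttc
Smad3 site: gcccctccttCCTGCTGgttcaggt
Ski site: ccccagtcttCCTGCTGctgccagg

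The same letters were present in 20.3% of the 20890 genes with an annotated 3′ UTR. These UTRs had a median length of 963 bases, against 135 to 6233 bases in the 10 genes, and a longer UTR holds more 7-letter words. The search was run after the expression results were known, and a match is a run of letters, not a shown binding site.

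The question of the first comparison was how 14 days of Ang II changed these genes in WT T cells. Of the 10 genes 6 were lower in Ang II at an adjusted p under 0.05 and 0 were higher. The 6 were Smad7, Tgfbr2, Tgfbr3, Ski, Smad4 and Smad3, and each of them was lower in every Ang II library than in any sham library. Of all 16012 genes tested, 7.06% were lower and 11.7% higher at the same threshold, and 22% were lower in every Ang II library. The median log2 fold change over the 10 genes was -0.36, against -0.02 over all genes. All 6 falls were small, with the largest at 0.619 of the sham level. When library size was set to the counts on the 15 T cell markers instead, 0 of the 10 were called lower, and 5 of the 6 turned to a positive log2 fold change.

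**Figure D1:**
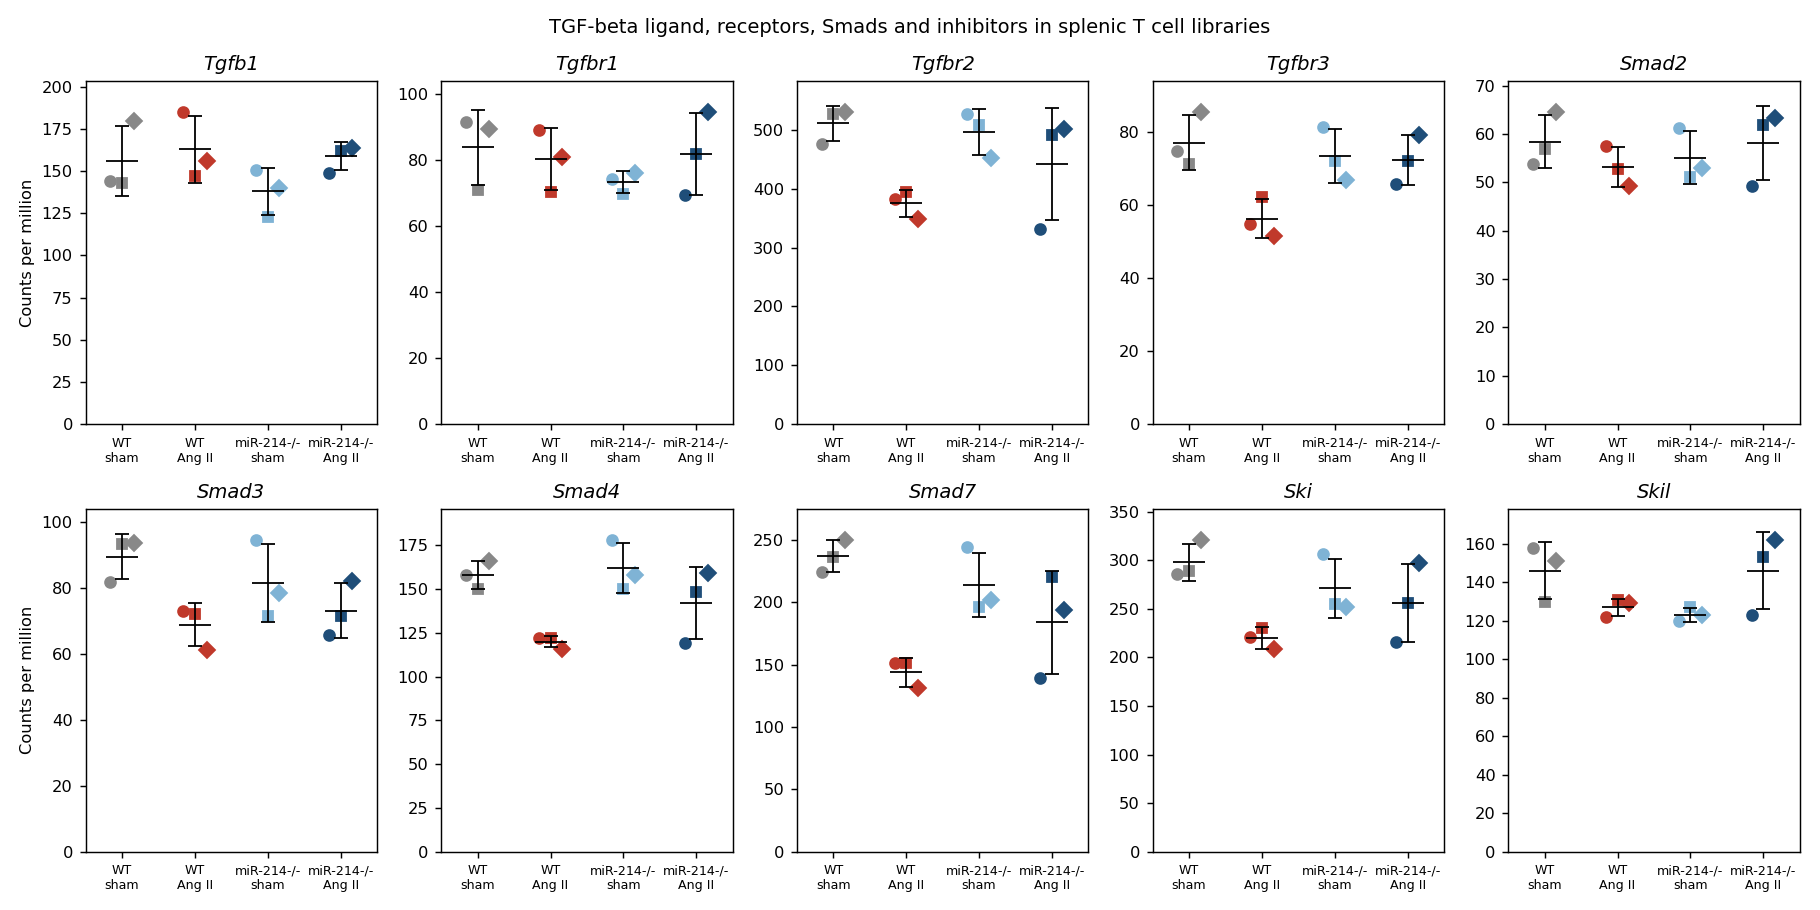
CPM of the 10 genes in each of the 12 libraries; circles, squares and diamonds are replicates 1, 2 and 3, and bars give the mean and SD of 3 libraries. In WT the Ang II points of Smad7, Tgfbr2, Tgfbr3, Ski, Smad4 and Smad3 all lie below the sham points, and the first miR-214-/- Ang II library is the lowest of its group in all 10 genes.

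Tgfb1 (chr7:25687002-25705077, plus strand), the ligand, had 144, 143 and 180 CPM in WT sham and 185, 147 and 156 CPM in WT Ang II. The miR-214-/- libraries held 151, 123 and 140 CPM in sham and 149, 162 and 164 CPM in Ang II. In both genotypes the sham and Ang II libraries overlapped, and the highest WT sham library was close to the highest WT Ang II library. The log2 fold change with Ang II was 0.09 in WT (SE 0.124, 95% interval -0.20 to 0.38, adjusted p = 0.645) and 0.21 in miR-214-/- (95% interval -0.01 to 0.43, adjusted p = 0.431). Neither passed the test, and the WT interval left room for a fall of 0.20 and for a rise of 0.38 on the log2 scale. With T cell marker scaling Tgfb1 was called higher in WT Ang II, by 0.61 (adjusted p = 0.00348).

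Tgfbr2 (chr9:116084293-116175360, minus strand), the receptor that binds the ligand first, had 476, 527 and 530 CPM in WT sham and 382, 395 and 349 CPM in WT Ang II. In miR-214-/- mice the values were 527, 509 and 452 CPM in sham and 332, 492 and 502 CPM in Ang II. The WT groups did not overlap, whereas in miR-214-/- Ang II only the first library lay below the sham range. In WT the log2 fold change was -0.43 (SE 0.0756, 95% interval -0.60 to -0.25, adjusted p = 0.0129), a level of 0.745 of sham. In miR-214-/- it was -0.16 (95% interval -0.56 to 0.24, adjusted p = 0.716) with all 3 Ang II libraries and 0.00 without the first. The WT value with T cell marker scaling was 0.09 (adjusted p = 0.348).

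The RefSeq promoter window of Tgfbr2 (chr9:116175314-116175613, minus strand, GRCm38.p6) is given because this receptor had the highest level per kilobase of exon of the 10 genes in all 4 groups and was among those lower in WT Ang II. Capitals mark the letters CAGAC, the SMAD box to which SMAD3 and SMAD4 bind, which were searched on both strands.

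Tgfbr2 promoter: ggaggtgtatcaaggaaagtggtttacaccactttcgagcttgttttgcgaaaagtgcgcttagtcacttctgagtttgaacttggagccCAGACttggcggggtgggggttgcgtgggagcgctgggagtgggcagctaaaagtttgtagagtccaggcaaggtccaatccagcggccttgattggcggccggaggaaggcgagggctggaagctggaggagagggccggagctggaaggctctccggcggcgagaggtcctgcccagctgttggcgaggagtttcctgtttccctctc

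The box occurred 1 time in this window. It was present in 49.6% of 32851 RefSeq promoter windows of the same 300 bases. Entries were matched for 5 of the 10 genes. The windows of Tgfb1, Smad3 and Ski held 0 boxes, and Tgfbr1 had a window with 0 and another with 1.

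Tgfbr1 (chr4:47353222-47414931, plus strand), the receptor kinase that phosphorylates SMAD2 and SMAD3, had 91.6, 70.8 and 89.4 CPM in WT sham and 89.1, 70.4 and 81.0 CPM in WT Ang II. In the knockout libraries the values were 74.3, 69.7 and 76.0 CPM in sham and 69.5, 81.7 and 94.5 CPM in Ang II. The groups overlapped in both genotypes, with the widest spread in miR-214-/- Ang II. Its log2 fold change was -0.04 in WT (SE 0.13, 95% interval -0.35 to 0.26, adjusted p = 0.843) and 0.16 in miR-214-/- (95% interval -0.10 to 0.42, adjusted p = 0.569). With T cell marker scaling it was called higher in WT Ang II, by 0.47 (adjusted p = 0.0308).

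Tgfbr3 (chr5:107106570-107289629, minus strand) encodes betaglycan, a co-receptor that presents ligand to TGFBR2. It had 74.7, 71.0 and 85.3 CPM in WT sham and 54.8, 62.2 and 51.5 CPM in WT Ang II. The miR-214-/- libraries held 81.2, 72.0 and 66.7 CPM in sham and 65.6, 72.0 and 79.2 CPM in Ang II. WT Ang II stood below the other 3 groups, whose libraries overlapped with one another. The change with Ang II on the log2 scale was -0.43 in WT (SE 0.0929, 95% interval -0.65 to -0.21, adjusted p = 0.0227) and -0.02 in miR-214-/- (95% interval -0.25 to 0.22, adjusted p = 0.964). Under T cell marker scaling the WT value was 0.08 (adjusted p = 0.515).

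Smad2 (chr18:76241580-76310963, plus strand), one of the 2 Smads that the activated receptor phosphorylates, had 53.7, 56.9 and 64.5 CPM in WT sham and 57.5, 52.7 and 49.3 CPM in WT Ang II. Without miR-214 it had 61.3, 51.2 and 52.9 CPM in sham and 49.3, 61.8 and 63.3 CPM in Ang II. All 4 groups overlapped. Its log2 fold change was -0.11 in WT (SE 0.0928, 95% interval -0.33 to 0.11, adjusted p = 0.428) and 0.08 in miR-214-/- (adjusted p = 0.803). With T cell marker scaling Smad2 was called higher in WT Ang II, by 0.41 (adjusted p = 0.00715).

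Smad3 (chr9:63646767-63757994, minus strand), the other receptor-activated Smad of this pathway and one that binds DNA itself, had 81.8, 93.4 and 93.7 CPM in WT sham and 73.2, 72.3 and 61.4 CPM in WT Ang II. The miR-214-/- libraries held 94.7, 71.5 and 78.5 CPM in sham and 65.7, 71.7 and 82.3 CPM in Ang II. The WT groups were apart and the miR-214-/- groups overlapped. The change with Ang II on the log2 scale was -0.36 in WT (SE 0.0888, 95% interval -0.57 to -0.15, adjusted p = 0.0348) and -0.15 in miR-214-/- (adjusted p = 0.65). Of the 6 genes called, Smad3 lost its call most often under other settings, and with T cell marker scaling its value was 0.16 (adjusted p = 0.133).

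Smad4 (chr18:73639009-73703780, minus strand), the partner of SMAD2 and SMAD3 in the nucleus, had 158, 150 and 166 CPM in WT sham and 122, 122 and 116 CPM in WT Ang II. In the knockout libraries the values were 178, 150 and 158 CPM in sham and 119, 148 and 159 CPM in Ang II. The 3 WT Ang II libraries lay within 6 CPM of each other and below all sham libraries of either genotype, and the first miR-214-/- Ang II library lay beside them. Its log2 fold change was -0.37 in WT (SE 0.06, 95% interval -0.51 to -0.23, adjusted p = 0.00947) and -0.18 in miR-214-/- (95% interval -0.47 to 0.10, adjusted p = 0.557). Scaled to T cell markers, the WT value was 0.14 (adjusted p = 0.196).

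Smad7 (chr18:75367529-75395935, plus strand), the inhibitory Smad that TGF-beta induces and that turns the receptor off, showed the largest fall. It had 224, 236 and 250 CPM in WT sham and 151, 151 and 131 CPM in WT Ang II. Without miR-214 it had 244, 196 and 202 CPM in sham and 139, 220 and 194 CPM in Ang II. The WT groups were far apart, while in miR-214-/- Ang II the first library lay within the range of WT Ang II and the others lay at 220 and 194 CPM, near sham. The change with Ang II on the log2 scale was -0.69 in WT (SE 0.0763, 95% interval -0.87 to -0.51, adjusted p = 0.00307), or 0.619 of the sham level. In miR-214-/- it was -0.21 (95% interval -0.62 to 0.20, adjusted p = 0.64), and -0.05 without the first Ang II library. Smad7 was the one gene of the 10 that kept a negative WT value with T cell marker scaling, -0.18 (95% interval -0.34 to -0.01, adjusted p = 0.0689), where it was not called.

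Ski (chr4:155154075-155222592, minus strand), a co-repressor that binds the Smad complex on DNA, had 286, 289 and 321 CPM in WT sham and 221, 230 and 209 CPM in WT Ang II. The miR-214-/- libraries held 306, 255 and 252 CPM in sham and 216, 256 and 297 CPM in Ang II. In WT the groups did not overlap, and in miR-214-/- they did. Its log2 fold change was -0.42 in WT (SE 0.0685, 95% interval -0.58 to -0.26, adjusted p = 0.00999) and -0.08 in miR-214-/- (adjusted p = 0.836). The T cell marker scale gave a WT value of 0.10 (adjusted p = 0.306).

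Skil (chr3:31095058-31122577, plus strand) encodes SnoN, a co-repressor related to SKI. It had 158, 130 and 151 CPM in WT sham and 122, 131 and 129 CPM in WT Ang II. In the knockout libraries the values were 120, 127 and 123 CPM in sham and 123, 153 and 162 CPM in Ang II. In WT the second sham library fell among the Ang II libraries, and the miR-214-/- sham libraries lay below all WT sham libraries. The change with Ang II on the log2 scale was -0.18 in WT (SE 0.0843, 95% interval -0.38 to 0.02, adjusted p = 0.178) and 0.25 in miR-214-/- (adjusted p = 0.406). The WT value with T cell marker scaling was 0.34 (adjusted p = 0.0514).

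The WT count rested in part on 1 library. Without the third WT Ang II library, the lowest of its group for 7 of the 10 genes, 1 of the 10 genes was called (Smad7, -0.63), while the log2 fold changes of the other 5 stayed between -0.39 and -0.28 and 202 of 16611 genes were called lower. Leaving out any other WT library kept 4 to 6 of the 10.

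The 10 genes were then expressed against the T cells themselves, as counts per 1000 counts on the 15 T cell markers. Of these 15 markers 13 were lower in WT Ang II at an adjusted p under 0.05, with a median log2 fold change of -0.50, which lay among the values of the 6 genes called. Without the third WT Ang II library 3 of the 15 were called lower, with a median of -0.44. On this scale Tgfbr2 was at 66.3, 67.6 and 63.5 in WT sham and 67.9, 71.2 and 71.1 in WT Ang II, so that its WT fall in CPM was gone. Smad7 was at 31.1, 30.3 and 29.9 in WT sham and 27.0, 27.2 and 26.6 in WT Ang II, and still lay lower in every Ang II library. Tgfb1 stood at 20.1, 18.4 and 21.5 in WT sham and 33.0, 26.5 and 31.8 in WT Ang II, higher in every Ang II library. In the fit on this scale 3 genes (Tgfb1, Tgfbr1 and Smad2) were called higher in WT Ang II and 0 lower, where 52.7% of all 16012 genes were called higher, 14 genes were lower, and the median of all genes was 0.50. The 3 rises thus stood at or near the shift of the median gene on that scale, and Tgfb1 was the one that exceeded it, by 0.61 against 0.50. The scale rests on the markers having kept their level per T cell, which was not tested.

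**Figure D2:**
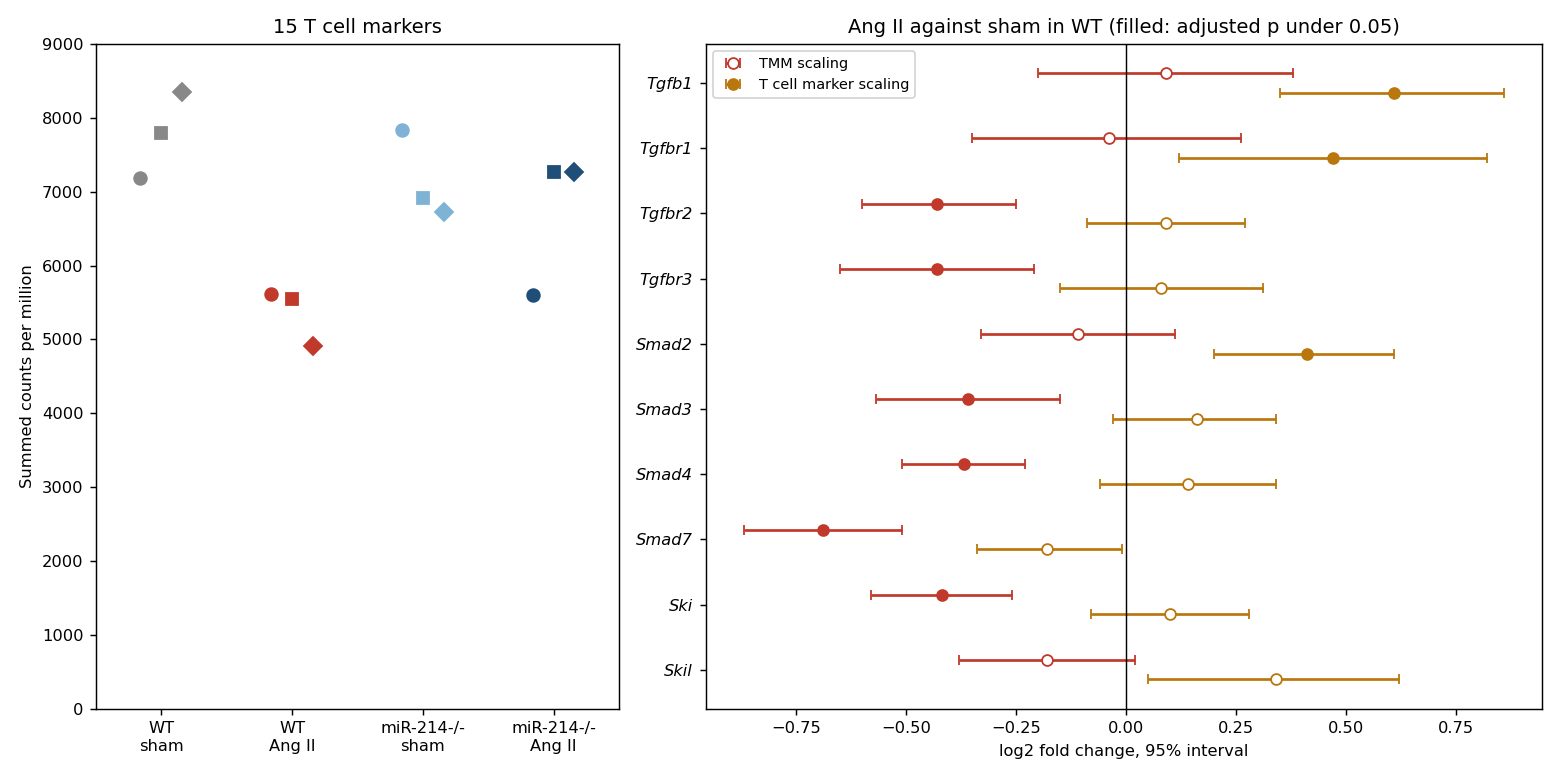
Left, summed CPM of 15 T cell markers in each library (circles, squares and diamonds are replicates 1, 2 and 3); right, WT log2 fold changes with Ang II and their 95% intervals under TMM scaling and under T cell marker scaling, filled where the adjusted p was under 0.05. The WT Ang II libraries sit between 4908 and 5620 and the 6 genes called lower under TMM are not called under the other scaling.

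**Figure D3:**
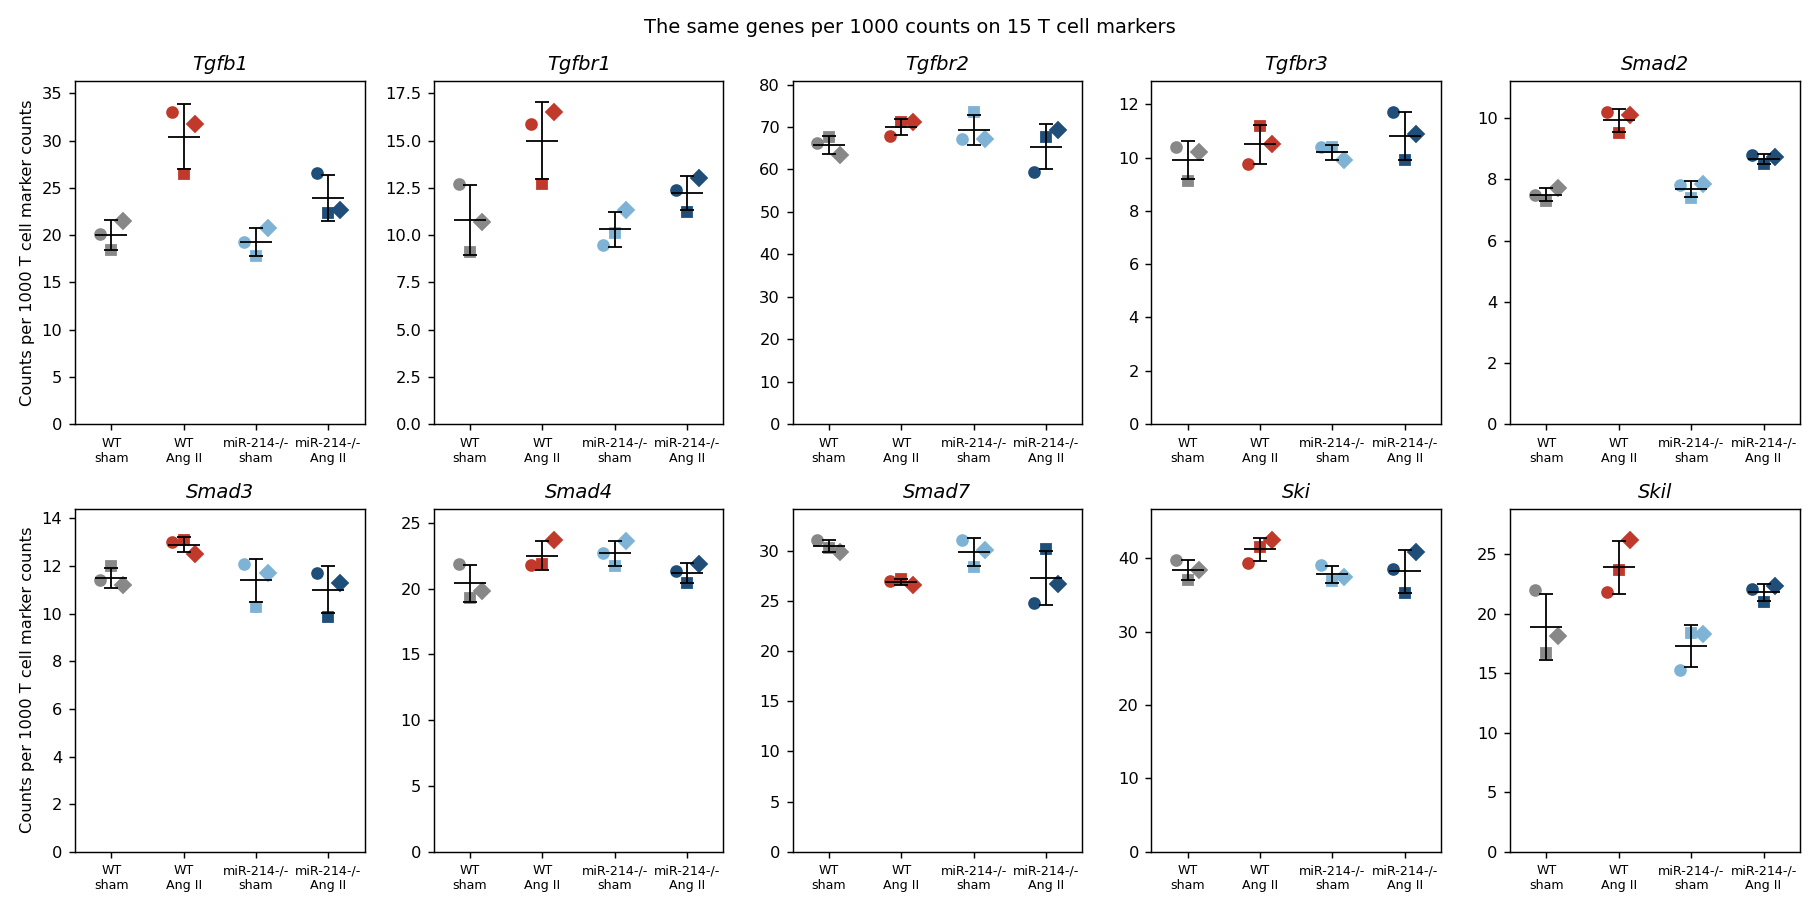
Counts of each gene per 1000 counts on 15 T cell markers in each of the 12 libraries; circles, squares and diamonds are replicates 1, 2 and 3, and bars give the mean and SD of 3 libraries. Tgfbr2 in WT runs from 63.5 to 71.2 in both groups together, and Smad7 in WT Ang II stays below WT sham.

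Whether Ang II changed the same genes without miR-214 was the second question. In miR-214-/- T cells 0 of the 10 genes passed edgeR's test, where 0% of 15937 genes were called, and 1 of the 10 (Skil) had an unadjusted p under 0.05, as did 1939 of all genes. DESeq2 called 277 genes in this comparison and 0 of the 10. The log2 fold changes ran from -0.21 (Smad7) to 0.25 (Skil), with a median of -0.05, and the smallest adjusted p was 0.406. None of the 10 was higher in every Ang II library than in the sham libraries, beside 8.86% of all genes. None of the 10 was lower in every Ang II library, and the share of all genes in that direction was not counted. The first Ang II library was the lowest of its group for all 10 genes, and its T cell marker sum was 5598 CPM against 7270 and 7261. Without it 0 of the 10 were called and the values ran from -0.09 (Smad3) to 0.35 (Skil, adjusted p = 0.227).

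The genotypes were compared within each treatment, with the same libraries as above on either side. In sham 0 of the 10 genes passed, where 0.0251% of 15913 genes (4 genes) were called, and DESeq2 called 94 genes and 0 of the 10. Values were below 0 for 9 of the 10 genes, ranging from -0.25 to 0.03. Skil was the one with an unadjusted p under 0.05 (-0.25, 95% interval -0.44 to -0.05, adjusted p = 0.701), and the one gene lower in every miR-214-/- sham library than in WT sham, as were 4.79% of all genes. In Ang II 0 of the 10 passed, where 0% of 16215 genes were called by edgeR, 1388 had an unadjusted p under 0.05, and DESeq2 called 33 genes and 0 of the 10. Values were above 0 for 9 of the 10 genes, up to 0.37. Tgfbr3 was the one with an unadjusted p under 0.05 (0.37, 95% interval 0.13 to 0.60, adjusted p = 0.569), and was higher in every miR-214-/- Ang II library than in WT Ang II, as were 8.01% of all genes. Without the first miR-214-/- Ang II library 0 were called, and the values of Smad7, Tgfbr3 and Tgfbr2 were 0.52 (adjusted p = 0.091), 0.43 (adjusted p = 0.105) and 0.41 (adjusted p = 0.0994). T cell marker scaling moved the median of all genes by -0.31 in this comparison, and 7 of the 9 positive values turned negative with it.

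The difference between the Ang II effects of the genotypes was tested by an interaction term over all 12 libraries. All 10 terms were positive, from 0.14 (Tgfb1) to 0.50 (Smad7), with a median of 0.25 against 0.01 over all genes. None of the 10 passed edgeR's test after adjustment, where 0.00596% of 16770 genes (1 gene) were called, and DESeq2 called 444 genes and 0 of the 10. An unadjusted p under 0.05 was seen for 3 of the 10, as for 2483 of all genes. They were Skil (0.44, SE 0.143, adjusted p = 0.237), Tgfbr3 (0.43, SE 0.151, adjusted p = 0.255) and Smad7 (0.50, SE 0.209, adjusted p = 0.309). Without the first miR-214-/- Ang II library Skil (0.55, adjusted p = 0.0271) and Smad7 (0.66, adjusted p = 0.0332) were called, where 5.35% of 17172 genes were. With T cell marker scaling the median term of all genes was -0.42, and 8 of the 10 terms turned negative, while Tgfbr3 (0.00) and Smad7 (0.05) did not. The falls seen in WT are thus not shown to differ from those in miR-214-/- in the full set of libraries. T cell markers had a median interaction term of 0.48 and proliferation genes one of -1.62, and their part in the terms of the 10 genes was not tested.

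**Figure D4:**
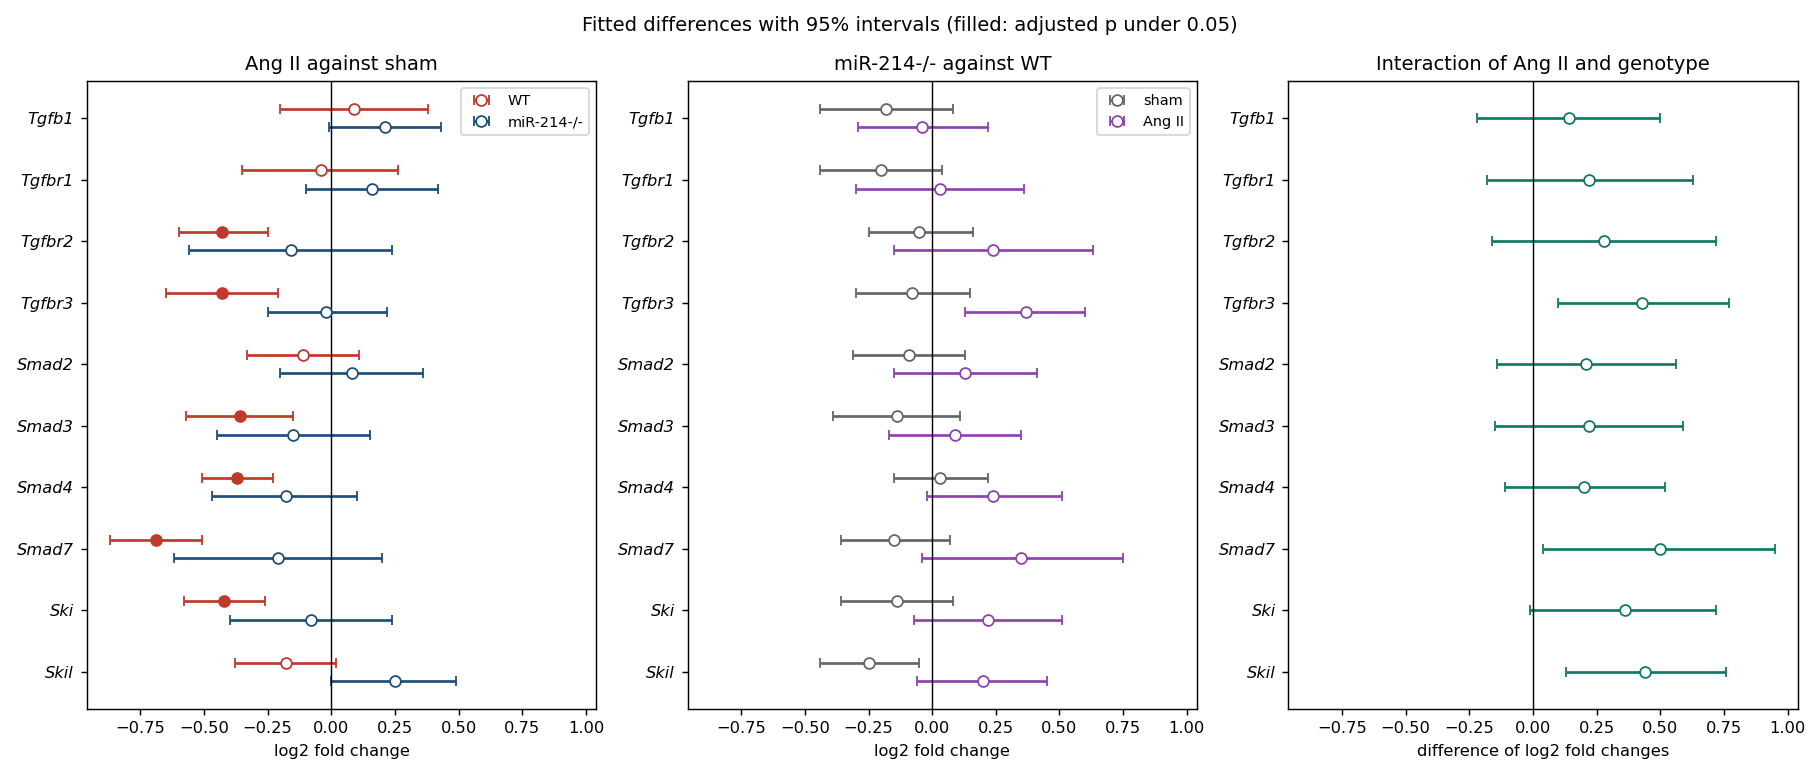
Fitted log2 differences of the 10 genes with 95% intervals; left, the Ang II effect in each genotype; middle, the genotype difference (miR-214-/- over WT) in each treatment; right, the interaction term; filled points have an adjusted p under 0.05. Filled points appear in the WT comparison alone, from -0.69 (Smad7) to -0.36 (Smad3), and all 10 interaction terms lie between 0.14 and 0.50.

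The 6 genes with the miR-214-3p seed match were the same 6 that were lower in WT Ang II. This overlap is a description, since the search followed the tests and the outcome depends on the kind of match. A match to seed bases 2 to 7 (CTGCTG) was present in 9 of the 10 genes, including 3 that were not called, and in 46.7% of all genes. With an A next to it, opposite the first base of the microRNA (CTGCTGA), it was present in Smad4 and Smad7 and in 16.2% of genes, and the longest form (CCTGCTGA) in Smad7 alone and in 5.04% of genes. Over all genes with an annotated 3′ UTR, 9.53% of the 3147 tested genes with CCTGCTG and 7.39% of the 9657 without were lower in WT Ang II. In miR-214-/- against WT the 6 genes had values from -0.15 to 0.03 in sham and from 0.09 to 0.37 in Ang II. Of the 6, 0 passed the test, where 0.0251% of 15913 genes in sham and 0% of 16215 in Ang II were called. With so few calls over all genes, this count does not set the 6 apart from other genes. Among the 15 T cell markers, of which 13 were lower in WT Ang II, 3 held the match (Cd3e, Cd247 and Thy1).

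Levels were compared between the genes as CPM per kilobase of exon. In WT sham the order was Tgfbr2 (62.4 ± 3.69, SD), Ski (53.7 ± 3.44), Smad7 (52.3 ± 2.90), Smad4 (42.5 ± 2.10), Tgfb1 (30.9 ± 4.14), Smad3 (16.2 ± 1.23), Skil (15.1 ± 1.52), Tgfbr1 (12.8 ± 1.74), Tgfbr3 (11.8 ± 1.13) and Smad2 (6.65 ± 0.629 CPM per kilobase). Libraries of neighbours in this order overlapped for Ski and Smad7, Smad3 and Skil, Skil and Tgfbr1, and Tgfbr1 and Tgfbr3, and were apart for the others. In WT Ang II Tgfbr2 (45.8) and Ski (39.6) still led, and Smad7 (31.9) came to overlap with Tgfb1 (32.3) and Smad4 (32.4). In both miR-214-/- groups the order began with Tgfbr2, Ski, Smad7, Smad4 and Tgfb1 and ended with Tgfbr1, Tgfbr3 and Smad2. The signalling receptor chain TGFBR2 and TGFBR1 was thus unequal at the RNA level, with Tgfbr2 at 62.4 and Tgfbr1 at 12.8 CPM per kilobase in WT sham. The places depend on the length used, and with the length of the longest transcript Tgfb1 had the highest value in both Ang II groups (63.3 in WT and 61.6 in miR-214-/-).

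**Figure D5:**
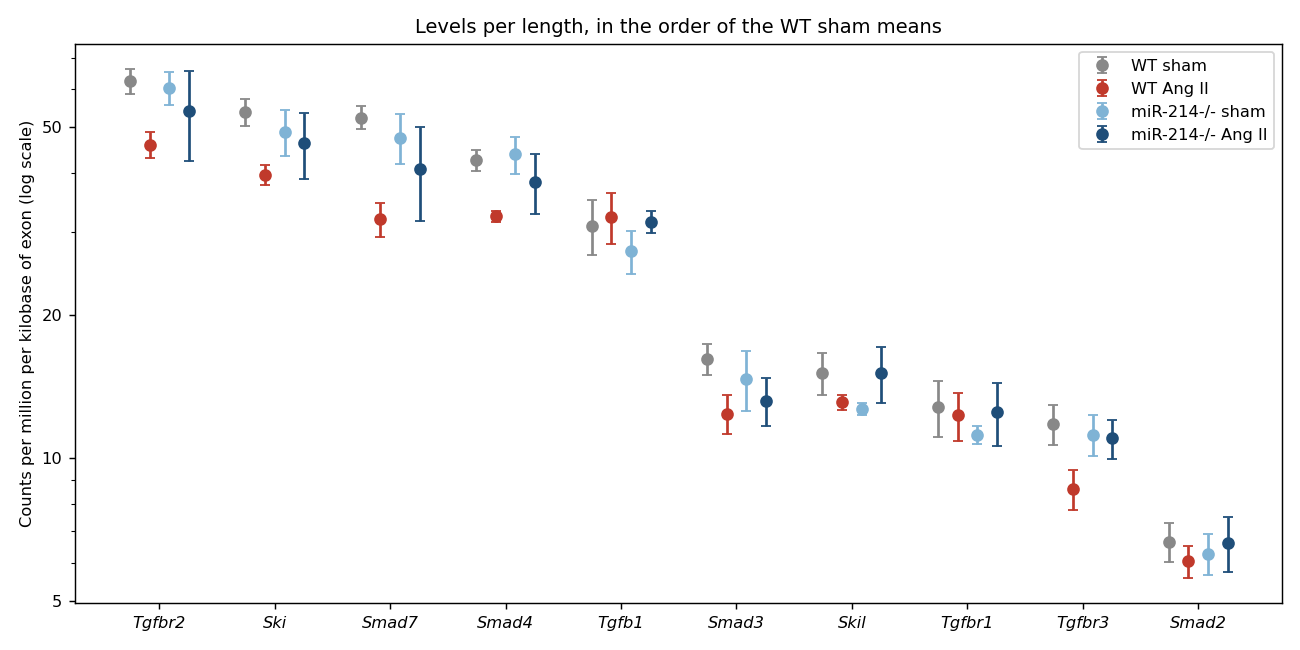
CPM per kilobase of exon for the 10 genes on a log scale, as mean and SD of 3 libraries for each of the 4 groups, in the order of the WT sham means. Values fall from 62.4 for Tgfbr2 to 6.65 for Smad2 in WT sham.

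Tgfb1 and Smad7 were set against all others for likeness of their course over the 12 libraries, measured as the root mean square difference of centred log2 CPM among 9778 genes. Closest to Tgfb1, whose 4 group means spanned 0.24 on the log2 scale, were Ifnar2 (0.040), Arpc4 (0.061) and Fermt3 (0.062). Closest to Smad7, which had the widest span of the 10 at 0.71, were S1pr4 (0.067), Grap2 (0.075) and Dyrk2 (0.076).

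Around the 10 genes, 90 further genes of the pathway were listed by role, and 77 of them could be tested in WT. In WT Ang II 10 were higher and 7 lower, beside 11.7% and 7.06% of all genes, and their median log2 fold change was -0.00. These counts moved with the setting. With T cell marker scaling 49 were higher and 0 lower, where 52.7% of all genes were called higher. With library totals 11 were higher and 3 lower, where 2101 and 845 of all 16012 genes were. Without the third WT Ang II library 3 were higher and 1 lower, where 744 and 202 of all 16611 genes were. In the other comparisons, where 76 to 80 of them were tested, edgeR called 0, with a lowest adjusted p of 0.208, while DESeq2 called 3 lower with Ang II in miR-214-/-, 2 with a negative term in the interaction and 0 between genotypes. Of all genes DESeq2 called 173 of 13035 lower with Ang II in miR-214-/- and 349 of 13771 with a negative interaction term. Without the first miR-214-/- Ang II library edgeR called 4 in the interaction, where 5.35% of 17172 genes were called. The 4 were 2 other receptors, 1 modulator and 1 nuclear partner. The other TGF-beta ligands were scarce: Tgfb2 had 0.227 CPM in WT sham and 0.478 in WT Ang II, and Tgfb3 had 2.65 and 1.61 CPM, against 143 to 180 CPM for Tgfb1 in WT sham (levels not corrected for length). Of 4 other ligands tested in WT edgeR called none and DESeq2, which tested 9, called 1 higher, with edgeR log2 fold changes of 2.60 for Inhba, an activin subunit (adjusted p = 0.0581), and -0.70 for Tgfb3 (adjusted p = 0.162). Inhba was called with T cell marker scaling (3.08, adjusted p = 0.00979).

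The latency and activation genes store TGF-beta or set it free. Of 13 tested, 4 were higher and 0 lower in WT Ang II, beside 11.7% and 7.06% of all genes. Mmp9, a protease able to release latent TGF-beta, rose from 12 to 83.6 CPM (log2 fold change 2.82, SE 0.387, adjusted p = 0.00613). Fn1, the matrix protein fibronectin, rose by 2.38 (adjusted p = 0.0183), with 53.8, 57.6 and 68.4 CPM in sham and 559, 153 and 205 in Ang II, and the first Ang II library far above the other two. Thbs1, thrombospondin, which activates latent TGF-beta, rose by 2.24 (adjusted p = 0.0177), from 3.45, 5.32 and 1.55 CPM to 20.2, 17.1 and 11.0 CPM. Ltbp3, which binds latent TGF-beta, rose by 1.26 (adjusted p = 0.0359) at levels of 0.901 and 2.15 CPM. These 4 were also called higher under T cell marker scaling, where 52.7% of all genes were called higher. Without the third WT Ang II library Ltbp3 was not called (1.18, adjusted p = 0.125). All 12 neutrophil genes were higher in the same libraries, and 2 of 12 macrophage and monocyte genes, whose sums ran from 603 to 870 CPM in WT sham and from 802 to 3073 CPM in WT Ang II. Their part in these values was not tested. Lrrc32, which displays latent TGF-beta on regulatory T cells, had 20.1, 15.8 and 17.6 CPM in WT sham and 15.6, 18.2 and 18 CPM in WT Ang II (log2 fold change -0.02, adjusted p = 0.914).

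Among 12 other receptors and co-receptors tested, 2 were higher and 1 lower in WT Ang II. Cd109, a co-receptor that dampens the signal, rose by 1.23 (adjusted p = 0.0293) at levels of 0.441 and 1.03 CPM. Eng, endoglin, rose by 1.03 (adjusted p = 0.0414), from 14.2, 19.7 and 13.6 CPM to 20, 38.7 and 37.2 CPM, with the first Ang II library close to sham. Acvr1b, an activin receptor, was lower (-0.42, adjusted p = 0.0353). Of 22 modulators 3 were higher and 4 lower, and of all genes 11.7% were higher and 7.06% lower. Smurf1, a ubiquitin ligase that SMAD7 brings to the receptor, fell by 0.64 (adjusted p = 0.00738), from 102, 116 and 120 CPM to 64.0, 79.5 and 70.6 CPM. Ppp1r15a, a phosphatase subunit that acts with SMAD7 on TGFBR1, fell by 0.61 (adjusted p = 0.0375), and Nedd4l, another ubiquitin ligase, by 0.42 (adjusted p = 0.038). Dab2, an adaptor for receptor uptake, rose by 2.14 (adjusted p = 0.0303) at levels of 0.326 and 1.44 CPM. With Ang II in miR-214-/-, Ppp1r15a (-0.64, adjusted p = 0.249) and Dab2 (2.35, adjusted p = 0.294) had values of like size, without a call. In the same comparison the mean of Smurf1 went from 109 to 94.8 CPM and that of Nedd4l from 38.9 to 36.2 CPM. Without the third WT Ang II library Smurf1 alone of the 22 was called, and none of the 12 receptors, where 946 of 16611 genes were called. With library totals 1 modulator was lower, as were 845 of all 16012 genes. Ppp1r15a (adjusted p = 0.0579) and Nedd4l (adjusted p = 0.0502) were not called with library totals. With T cell marker scaling 15 modulators were higher and 0 lower, where 52.7% of all genes were called higher, and Nedd4l turned to a value of 0.09.

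Of 15 nuclear partners tested in WT, Crebbp, a histone acetyltransferase that works with the Smads, was lower (-0.46, adjusted p = 0.0117) and Rbl1, a repressor of cell cycle genes, higher (0.23, adjusted p = 0.0344). With Ang II in miR-214-/-, Crebbp had a value of like size (-0.42, adjusted p = 0.255), without a call, and the mean of Rbl1 went from 115 to 103 CPM. In the non-Smad arm 1 of 9 was called in WT, Traf6 (-0.27, adjusted p = 0.0265). Of all genes 11.7% were higher and 7.06% lower in WT Ang II. Crebbp and Traf6 turned positive (0.06 and 0.24), without a call, under T cell marker scaling. Without the third WT Ang II library none of either list was called, where 946 of 16611 genes were. The Smads of the BMP branch, Smad1 (-0.21, adjusted p = 0.294) and Smad5 (-0.22, adjusted p = 0.0991), did not pass in WT. Smad6 and Smad9 were too low to test with edgeR, and DESeq2, which tested 3 of these Smads, called 0. Smad6 had 5 counts in WT sham and 23 in WT Ang II, and 9 and 24 in miR-214-/-, each summed over 3 libraries.

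The last question was whether genes known to respond to TGF-beta in T cells moved along with the pathway. Of those raised by TGF-beta, 8 of 11 could be tested in WT, and of those reported here 1 passed the test. This was Cdkn1a, a cell cycle inhibitor, which rose by 1.35 (adjusted p = 0.0145). Of all genes 11.7% were higher in WT Ang II at the same threshold. Itgae, the integrin CD103 and a direct target of TGF-beta in T cells, had 91.4, 78.3 and 80.2 CPM in WT sham and 82.9, 81.4 and 50.1 CPM in WT Ang II (log2 fold change -0.20, adjusted p = 0.468), with 1 Ang II library apart from the rest. Foxp3, the regulatory T cell factor, had 80.1, 75.3 and 83.2 CPM in WT sham and 83.0, 69.4 and 87.0 CPM in WT Ang II (0.03, adjusted p = 0.862), with overlapping groups. Its value with T cell marker scaling was 0.55 (adjusted p = 0.0113), close to the shift of the median gene on that scale.

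Of 11 genes that TGF-beta holds down in T cells, 3 were lower in WT Ang II and 0 higher, beside 7.06% and 11.7% of all genes. They were the cytotoxic genes Gzma (-1.33, adjusted p = 0.0487) and Prf1 (-0.84, adjusted p = 0.0105) and the Th2 factor Gata3 (-0.44, adjusted p = 0.0312). The WT sham libraries were uneven for Gzma (69.2 ± 38.5 CPM, SD, against 27.1 ± 3.69 in WT Ang II). With Ang II in miR-214-/- Gzma had a value of -0.51 (adjusted p = 0.32), without a call. There the means of Prf1 and Gata3 went from 81.1 to 73.8 and from 62.4 to 59.5 CPM. With T cell marker scaling Prf1 was called with -0.32 (adjusted p = 0.0423), while Gzma (-0.82, adjusted p = 0.1) and Gata3 (0.07, adjusted p = 0.587) were not. Gzma was also not called with library totals (adjusted p = 0.0558). NK cell markers, which share such cytotoxic genes, summed to 193 to 246 CPM in WT sham and 135 to 206 CPM in WT Ang II, and their part in these falls was not tested. Without the third WT Ang II library Prf1 was the only gene of this list called, and Cdkn1a was no longer called, where 946 of 16611 genes were. In the other 4 comparisons 0 genes of either response list passed edgeR's test with all libraries kept. The lowest adjusted p over these comparisons belonged to Tgif1, a co-repressor that is also among the genes raised by TGF-beta, with Ang II in miR-214-/- (-0.71, adjusted p = 0.208). In the interaction Cdkn1a had a term of -1.18, and Rbl1, of the nuclear partners and not of the response lists, one of -0.36 (adjusted p = 0.213 for each). Without the first miR-214-/- Ang II library 1 of the 11 genes that TGF-beta holds down was called in the interaction, beside 5.35% of all genes.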

How the data were processed

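T cell RNA was sequenced as stranded polyA libraries (RIN 9.7 to 10). Per the labels and the study's methods the authors aligned trimmed reads to GRCm38 with STAR and counted uniquely mapped exonic reads per gene with featureCounts (Subread 1.5.2). The deposited table holds raw counts for 12 libraries. The strand setting and annotation release are not given in the sources used here, so reads of genes that overlap on opposite strands cannot be told apart. Gene IDs were joined to GENCODE M21, and 259 of 49315 (0.0245% of counts) had no match. No 2 libraries were identical.

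Counts were tested with the quasi-likelihood test of edgeR 4.0.16 (R 4.3.3; filterByExpr, TMM, default settings), on the groups compared, and for the interaction on all 12 libraries. P-values were adjusted by Benjamini-Hochberg over all genes tested, and called under 0.05. The fits were checked on simulated counts. DESeq2 1.42.0, which the study used, other scalings, filters, fit options, a replicate block and leaving out each library were the alternatives. T cell marker scaling set each library's size to its counts on 15 T cell markers. CPM refers to counts on genes that passed the filter. The 10 genes, the lists and the rules for naming genes (all 10; up to 4 genes called per list with the largest change, or the 2 lowest p where none was; Itgae, Foxp3 and Lrrc32 always; the 3 genes most like Tgfb1 and the gene with the widest span) were chosen with earlier results of these data known. The seed and SMAD box searches were run after the tests. The text names part of the genes these rules allow. Replicates 1 to 3 are the numbers in the labels. The result of 1 gene of the response lists is not reported here.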

Additional observations from a re-analysis of the deposited data

How the results depend on the processing

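In WT 6 of the 10 genes were called, and 6 under DESeq2, RLE size factors, library totals, a minimum of 10 counts in every library, adjusted deviance, a robust fit and 1 fit over all 12 libraries, and 5 without a filter. With an absolute log2 fold change over 1 required as well the count was 0, and with T cell marker scaling it was 3, all higher. Leaving out single libraries gave 1 to 6 in WT and 0 to 2 for the interaction, with 1 without the third WT Ang II library and 2 without the first miR-214-/- Ang II library. The counts of the other comparisons were 0 under every alternative run. A replicate block gave 4 in WT (Tgfbr2, Smad4, Smad7 and Ski, with 2381 genes called in place of 3009) and 0 elsewhere. Deviations of same-numbered libraries from their group means correlated at 0.198, 0.111 and -0.137 in WT and at -0.56, -0.232 and -0.368 in miR-214-/-. With groups of 3 libraries, these values cannot settle whether same-numbered libraries were paired.

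Signs turned mainly under T cell marker scaling, which moves the median of all genes by its own construction. In WT the values became 0.47 (Tgfbr1), 0.09 (Tgfbr2), 0.08 (Tgfbr3), 0.41 (Smad2), 0.16 (Smad3), 0.14 (Smad4), 0.10 (Ski) and 0.34 (Skil). For miR-214-/- against WT in Ang II they became -0.30 (Tgfbr1), -0.10 (Tgfbr2), -0.20 (Smad2), -0.23 (Smad3), -0.08 (Smad4), -0.11 (Ski) and -0.13 (Skil), and in sham 0.07 (Tgfbr2), 0.05 (Tgfbr3) and 0.04 (Smad2). For Ang II in miR-214-/- they became 0.08 (Tgfbr3) and 0.01 (Ski). Interaction terms became -0.30 (Tgfb1), -0.22 (Tgfbr1), -0.17 (Tgfbr2), -0.23 (Smad2), -0.21 (Smad3), -0.24 (Smad4), -0.09 (Ski) and -0.01 (Skil). With library totals Tgfbr1 turned to -0.01 for genotype in Ang II. Leaving out single libraries turned some small values that had not been called, which then ran from -0.02 to 0.20 (Tgfb1) and -0.15 to 0.04 (Tgfbr1) in WT, from -0.27 to 0.00 (Tgfbr2), -0.09 to 0.06 (Tgfbr3) and -0.20 to 0.03 (Ski) for Ang II in miR-214-/-, from -0.09 to 0.02 (Tgfbr2), -0.15 to 0.00 (Tgfbr3) and -0.04 to 0.09 (Smad4) for genotype in sham, and from -0.12 to 0.08 (Tgfb1) and -0.08 to 0.13 (Tgfbr1) for genotype in Ang II.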
